A study of Mus musculus with 6 samples.

Results

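Transcripts of 9 genes of the complement system were examined in Lewis lung carcinoma (LLC) cells sorted from tumours, and 6 of the 9 were upregulated and 1 was downregulated in LLC cells from tumours that had been seeded together with bone marrow-derived mesenchymal stem cells (BMSCs). Over all 13353 tested genes, 31.5% were upregulated and 31.3% downregulated. The 9 genes were C1ra, C1s1, C2, C3, C4b, Cfb, Serping1, Cd55 and Cd59a. They were chosen by gene symbol, and all 9 were present among the 18182 genes of the deposited tables. LLC is an established mouse lung carcinoma line, and here it carried red fluorescent protein (LLC-RFP). LLC-RFP cells were injected under the skin of wild type C57BL/6 mice, either with no other cells (LLC alone, 3 libraries) or together with BMSCs (LLC with BMSCs, 3 libraries), and RFP-positive cells were sorted from the primary tumours by flow cytometry. BMSCs are multipotent stromal cells of the marrow, and the murine BMSCs were bought as cells of the same mouse strain. All mice of both groups thus received LLC-RFP cells, and no age is stated for the mice of the sequencing experiment itself. Mice of the allograft experiments, with LLC-luciferase cells, were females aged 6 weeks. The source label of the co-injected libraries names both LLC cells and mesenchymal stem cells, whereas their description names only the sorted RFP-positive cells. The comparison addressed how transcription in the cancer cells differs once BMSCs have been present in the tumour.

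Complement is a cascade of plasma proteins in which proteases activate one another in turn and deposit fragments on cell surfaces. The classical pathway starts with the C1 complex, in which C1q recognises a surface and the protease C1r activates the protease C1s. C1s then cleaves C4 and C2 into the parts of a C3 convertase. The alternative pathway builds its own C3 convertase from C3 and factor B and so amplifies the cleavage of C3, the component on which all pathways converge. Serping1 (C1 inhibitor), Cd55 (decay-accelerating factor) and Cd59a (an inhibitor of the membrane attack complex) restrain the cascade at its start, at the convertases and at its end. The liver makes most plasma complement, but many other cells, tumour cells included, transcribe some of its genes.

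The starts of the genes are shown first for 3 members whose letters include a motif searched for here. RefSeq's promoter table for the build GRCm38.p6 held a window for 5 of the 9 genes, with none for C2, C4b, Cfb and Serping1. The 250 bases before the annotated start were searched on both strands for the interferon-stimulated response element core GAAANNGAA, the STAT motif TTCNNNGAA, the NF-kB motif GGNNTTTCC and the C/EBP motif TTGCNNAA, which are present in 7.13%, 7.02%, 4.93% and 9.56% of the 32851 promoter windows of the table. C3 held a C/EBP match 45 bases before its start. C1s1, which has 2 windows, held one 242 bases before the more upstream of its starts, on the opposite strand, and none in the other window, and Cd59a held an interferon element match 187 bases before its start. None of the matches overlapped another. The sequences are written 5′ to 3′ along the strand of the gene, with the matched motif in capitals, and cover chr17:57228137-57228386 (minus strand) for C3, chr6:124542360-124542609 (minus strand) for C1s1 and chr2:104095551-104095800 (plus strand) for Cd59a.
C3: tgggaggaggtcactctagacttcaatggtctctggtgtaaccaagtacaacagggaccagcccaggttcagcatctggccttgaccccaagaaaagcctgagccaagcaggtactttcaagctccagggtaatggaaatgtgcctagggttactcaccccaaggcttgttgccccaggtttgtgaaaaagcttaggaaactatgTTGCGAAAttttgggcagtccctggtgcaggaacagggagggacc
C1s1: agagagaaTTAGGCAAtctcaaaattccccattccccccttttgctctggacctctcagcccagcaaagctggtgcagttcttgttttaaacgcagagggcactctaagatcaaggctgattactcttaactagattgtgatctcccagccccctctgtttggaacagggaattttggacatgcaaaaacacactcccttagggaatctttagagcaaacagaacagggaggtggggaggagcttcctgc
Cd59a: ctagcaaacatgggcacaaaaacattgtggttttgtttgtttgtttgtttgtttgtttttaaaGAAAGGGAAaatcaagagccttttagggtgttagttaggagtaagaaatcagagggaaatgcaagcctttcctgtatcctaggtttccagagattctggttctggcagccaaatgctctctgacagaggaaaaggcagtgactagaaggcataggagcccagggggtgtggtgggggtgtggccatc
A match in such a window describes the letters only. The windows of C1ra and Cd55 held none of the 4 motifs.

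In the mouse genome build GRCm38 (GENCODE M21 annotation) C3 lies at chr17:57203970-57228136, and C4b (chr17:34728380-34743882), Cfb (chr17:34856374-34862518) and C2 (chr17:34862604-34898265) lie on the same chromosome, all on the minus strand. Cfb and C2 are neighbours separated by 85 bases, and exons of both overlap those of the annotated gene Gm20547 on the same strand. C1ra (chr6:124512405-124523443, plus strand) and C1s1 (chr6:124530345-124542359, minus strand) also lie close together. Serping1 (chr2:84765387-84775444, minus strand) and Cd59a (chr2:104095801-104115354, plus strand) are on chromosome 2, and Cd55 (chr1:130439027-130462744, minus strand) is on chromosome 1. Exons of C1s1, C2 and Cd55 overlap those of genes on the other strand (Gm16567, Zbtb12 and Gm16083), and whether the counting used the strand is not given in the sources used here.

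The libraries held 33476347 to 46189113 estimated fragments on genes. A level is given as FPKM (fragments divided by the length of the transcript and by the size of the library), and a change as a log2 fold change from edgeR's quasi-likelihood test on the estimated counts, LLC with BMSCs against LLC alone, with its standard error (SE) and a p adjusted over all 13353 genes that passed edgeR's filter on low counts. A gene was called at an adjusted p under 0.05, and the median log2 fold change over the tested genes was 0.01. Of the tested genes, 8.65% were upregulated and 7.17% downregulated with a log2 fold change of at least 1 in size. FPKM values of the groups did not overlap for 37.0% in the upward and 33.7% in the downward direction, so that a call alone is common in this comparison. The sources do not say whether the 3 libraries of a group came from separate mice, and the p-values then measure the spread between these libraries, which may be technical. In LLC alone replicate 3, genes of the shortest quintile lay a median 0.31 above and those of the longest quintile 0.37 below the mean of the 6 libraries on the log2 scale. The LLC with BMSCs libraries deviated the other way, by -0.19 to -0.091 for the shortest and 0.10 to 0.18 for the longest quintile, and with this trend over length removed the log2 fold change was 2.28 for C3, 1.54 for Serping1 and -1.63 for Cd59a. An exact two-sided permutation test of 3 libraries against 3 has 10 splits and cannot give a p below 0.1.

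Markers of other cells were read in the same libraries. Krt8, a keratin of simple epithelium, was at a mean of 95.3 FPKM in LLC alone and 110 in LLC with BMSCs, while the epithelial adhesion genes Epcam and Cdh1 had 0 to 5 counts in every library. Of 12 markers of BMSCs and fibroblasts, 10 were tested and all 10 were upregulated, and their summed level was 361 to 429 CPM (counts scaled to a common library size) in LLC alone and 800 to 847 in LLC with BMSCs. Col3a1 was the largest part of these sums, at a mean of 226.5 CPM in LLC alone and 550.2 in LLC with BMSCs. Col1a1 had 2 to 4 counts in LLC alone and 477 to 586 in LLC with BMSCs. The matrix proteoglycan gene Dcn went from 0.11 to 6.31 FPKM, and Thy1 had 0 to 2 counts in every library. Of 10 neutrophil markers, 6 were tested and all 6 were upregulated. The 10 markers summed to 0.469 to 0.789 CPM in LLC alone and 18.3 to 21.2 in LLC with BMSCs. S100a8, S100a9, Mpo, Csf3r and Camp had 0 to 2 counts in each LLC alone library. They passed the filter on low counts through LLC with BMSCs and could be called upward only. Ly6g had 1 to 4 counts in every library. Of 12 macrophage markers, 6 were tested, of which 4 were upregulated and 1 was downregulated, with sums of 24.1 to 28.6 CPM against 29.0 to 31.2; Adgre1 was at 0 in LLC alone and had 60 to 79 counts in LLC with BMSCs, and the C1q genes were near 0 in both. Hepatocyte markers summed to 0.347 to 0.687 CPM in LLC alone and 0.227 to 0.449 in LLC with BMSCs, with Alb at 0 to 2 counts. Endothelial markers summed to 1.06 to 1.31 CPM against 1.41 to 1.82 and lymphocyte markers to 0.388 to 0.390 CPM against 0.227 to 0.382. Of 8 endothelial genes 2 were tested and neither was called, and no lymphocyte gene passed the filter on low counts. Of 8 epithelial markers 2 were tested and both were upregulated, with sums of 157 to 177 CPM against 189 to 198, nearly all of it Krt8. All 22 of 22 interferon response genes were upregulated, with sums of 113 to 118 CPM in LLC alone and 763 to 796 in LLC with BMSCs. Over all tested genes 31.5% were upregulated. Other marker genes near 0 in LLC alone, Col1a1, Dcn, Oas2 and Iigp1 among them, could likewise be called upward only. In CPM, 6 of the marker sums were higher in every library of LLC with BMSCs than in any of LLC alone. In FPKM this held for 5, since the macrophage sums overlapped (16.95 to 20.46 against 18.79 to 20.27). The hepatocyte sums overlapped in CPM, and the lymphocyte sums in CPM were lower in LLC with BMSCs. The part of what these markers stand for in the complement results was not tested. In RNA from sorted populations, fewer cells of a type and less RNA per cell cannot be told apart.

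C3 and Cfb, the core of the alternative pathway, had the largest differences of the 9 genes in the fit. C3, the protein whose cleavage is the central step of complement, was at 1.51, 1.67 and 1.25 FPKM in LLC alone replicates 1 to 3 and at 8.74, 8.07 and 7.89 FPKM in LLC with BMSCs. The lowest library of LLC with BMSCs was far above the highest of LLC alone. The log2 fold change was 2.46 with an SE of 0.11 (5.52-fold, adjusted p = 1.5e-06, edgeR). Cfb encodes factor B, the protease of the alternative convertase. Its level was 0.24, 0.23 and 0.20 FPKM in LLC alone and 1.95, 2.05 and 1.92 FPKM in LLC with BMSCs. All 3 libraries of each group lay close together, and the groups did not overlap. Cfb rose by 3.11 on the log2 scale with an SE of 0.12 (8.64-fold, adjusted p = 1.04e-06, edgeR). Among the 13353 tested genes, 334 had a higher log2 fold change than Cfb and 428 a higher one than C3. The counts behind these values were 284 to 354 in LLC alone and 1756 to 1976 in LLC with BMSCs for C3, and 21 to 30 against 227 to 244 for Cfb.

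**Figure D1:**
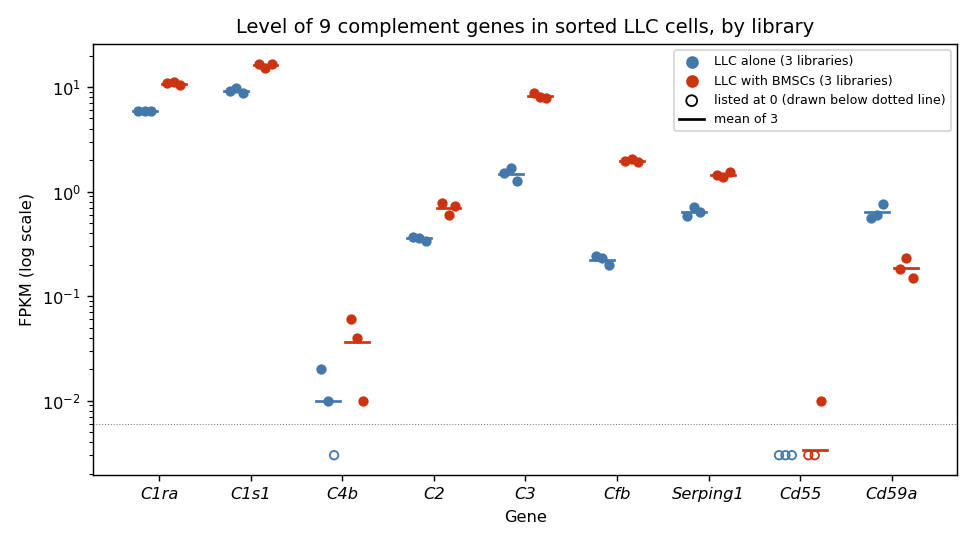
Level of the 9 complement genes in FPKM on a log axis, 1 point per library, with LLC alone in blue, LLC with BMSCs in red and a bar at the mean of 3 libraries. Open circles below the dotted line are libraries in which the gene is listed at 0. C1ra, C1s1, C2, C3, Cfb and Serping1 are higher in LLC with BMSCs without overlap, Cd59a is lower without overlap, and C4b and Cd55 lie at or under 0.06 FPKM.

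The classical pathway proteases were already transcribed in LLC alone and rose by a smaller factor. C1ra, the mouse gene of the protease C1r, was at 5.93, 5.93 and 5.84 FPKM in LLC alone and at 10.84, 11.18 and 10.37 FPKM in LLC with BMSCs. The spread within each group was small beside the step between them. Its log2 fold change was 0.85 with an SE of 0.058 (1.80-fold, adjusted p = 1.36e-05, edgeR). C1s1, the gene of C1s, the protease that cleaves C4 and C2, was the most abundant of the 9 in both groups, with 9.09, 9.69 and 8.74 FPKM in LLC alone and 16.47, 15.34 and 16.77 FPKM in LLC with BMSCs. Again the groups did not overlap. The log2 fold change was 0.87 with an SE of 0.068 (1.83-fold, adjusted p = 2.65e-05, edgeR). C2, the protease subunit of the classical and lectin pathway convertase, was at 0.37, 0.36 and 0.34 FPKM in LLC alone and 0.77, 0.59 and 0.72 FPKM in LLC with BMSCs. It rose by 0.94 on the log2 scale with an SE of 0.16 (1.92-fold, adjusted p = 0.00143, edgeR), on 31 to 44 counts in LLC alone and 67 to 88 in LLC with BMSCs.

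C4b, which encodes the C4 protein that C1s cleaves and so the partner of C2, was hardly detected. Its FPKM was 0.02, 0.01 and 0 in LLC alone and 0.06, 0.04 and 0.01 in LLC with BMSCs, from estimated counts of 4.45, 2.10 and 0 against 14.43, 10.37 and 2.46. The groups overlapped, and the gene did not pass the filter on low counts. With no filter its log2 fold change was 1.96 (adjusted p = 0.103, edgeR), and an exact two-sided permutation test of its FPKM gave p = 0.3. It was called higher only when LLC with BMSCs replicate 3 was left out (log2 fold change 2.42, adjusted p = 0.0264, edgeR) among the fits that left out a library and tested it. A difference in C4b was therefore not established at this depth.

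The genes of C1r, C1s and C4 each have a near-identical copy in the mouse, and the estimated counts divide shared reads between the copies. The sums of C1ra with C1rb and of C1s1 with C1s2 came out as whole numbers in 6 of 6 libraries, although the single values did not, and that of C4b with C4a in 5 of 6. C1ra held 98.6% to 99.8% of the reads of its pair and C1s1 held 91.4% to 98.7%, whereas C4b held 0% to 30.1%. C1rb was at a mean of 0.0833 FPKM in LLC alone and 0.0333 in LLC with BMSCs and was not tested. C1s2 moved against C1s1, from 0.88, 0.71 and 0.67 FPKM in LLC alone to 0.41, 0.28 and 0.23 in LLC with BMSCs (log2 fold change -1.31, SE 0.24, adjusted p = 0.0019, edgeR), and this value rests on how reads were shared out. With the reads of each pair summed, an alternative added after the values were seen, C1ra with C1rb rose by 0.84 and C1s1 with C1s2 by 0.79 on the log2 scale (adjusted p = 1.45e-05 and 4.41e-05, edgeR). C4a alone had a log2 fold change of 0.51 with an SE of 0.20 (adjusted p = 0.0519, edgeR), and C4b with C4a one of 0.71 (adjusted p = 0.031, edgeR), from sums of 33, 19 and 20.9 counts in LLC alone and 48, 47 and 33 in LLC with BMSCs.

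The regulators among the 9 genes moved in different directions. Serping1 encodes C1 inhibitor, a secreted serpin that inactivates C1r and C1s. It was at 0.58, 0.71 and 0.64 FPKM in LLC alone and 1.45, 1.38 and 1.53 FPKM in LLC with BMSCs, with no overlap. Its log2 fold change was 1.44 with an SE of 0.13 (2.72-fold, adjusted p = 6.02e-05, edgeR). Cd59a encodes the membrane-anchored protein that blocks the last step of the cascade, and it was the gene that fell. Its level was 0.56, 0.59 and 0.76 FPKM in LLC alone and 0.18, 0.23 and 0.15 FPKM in LLC with BMSCs. Every library of LLC with BMSCs was below every library of LLC alone. Cd59a fell by 1.78 on the log2 scale with an SE of 0.23 (3.43-fold lower, adjusted p = 0.000393, edgeR), on 34 to 59 counts in LLC alone and 11 to 17 in LLC with BMSCs, and 368 of the tested genes had a lower log2 fold change. Cd55, the membrane protein that speeds the decay of C3 convertases, was listed above 0 in a single library, LLC with BMSCs replicate 3, with 1 count. Cd59b, the second mouse CD59 gene, had 3 counts in LLC alone replicate 1 and none elsewhere.

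Of the 9 genes, 7 passed the filter on low counts, and 6 of these were upregulated and 1 was downregulated, beside 31.5% and 31.3% of all tested genes. With a log2 fold change of at least 1 in size, 3 were upregulated (C3, Cfb and Serping1) and 1 was downregulated (Cd59a), beside 8.65% and 7.17%. The FPKM values did not overlap between groups for the same number of genes, 6 upward and 1 downward, beside 37.0% and 33.7%, and the exact two-sided permutation test gave its smallest p, 0.1, for each of the 7. The median log2 fold change of the 7 tested genes was 0.94. These counts cover the tested genes and leave out C4b and Cd55.

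In LLC alone the order of the levels per transcript length was C1s1 (mean 9.17 FPKM), C1ra (5.90), C3 (1.48), Serping1 (0.643), Cd59a (0.637), C2 (0.357), Cfb (0.223), C4b (0.01) and Cd55 (0). Serping1 and Cd59a could not be ordered, since their libraries overlapped, nor could C4b and Cd55. In LLC with BMSCs the order was C1s1 (16.2 FPKM), C1ra (10.8), C3 (8.23), Cfb (1.97), Serping1 (1.45), C2 (0.693), Cd59a (0.187), C4b (0.0367) and Cd55 (0.00333), and only the libraries of C4b and Cd55 overlapped among neighbours. The first 3 places were the same in both groups, and Cfb moved from the seventh to the fourth. The FPKM of the 9 genes summed to 18.4 ± 0.718 (SD, n = 3) in LLC alone and 39.6 ± 0.809 (SD, n = 3) in LLC with BMSCs. C3 made up 8.0% ± 0.863 (SD, n = 3) of this sum in LLC alone and 20.8% ± 0.781 (SD, n = 3) in LLC with BMSCs, and C1s1 made up 49.8% ± 0.663 and 40.9% ± 1.58 (SD, n = 3 each).

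Ratios of FPKM within a library, chosen after the values were seen, put the members side by side. Factor B and C2 are homologous proteases of the alternative and the classical convertase, and Cfb over C2 was 0.649, 0.639 and 0.588 in LLC alone and 2.53, 3.48 and 2.67 in LLC with BMSCs. C2 was thus the higher of the pair in each library of LLC alone and Cfb in each library of LLC with BMSCs. C3 over Cr1l, the gene of the rodent membrane regulator Crry that limits C3 deposition, was 0.0386, 0.0448 and 0.0319 in LLC alone and 0.474, 0.408 and 0.386 in LLC with BMSCs. C3 over Cfb was 6.60 ± 0.572 in LLC alone and 4.18 ± 0.279 in LLC with BMSCs (SD, n = 3 each), without overlap between the groups. For these ratios an exact two-sided permutation test gave p = 0.1, the smallest possible. This p adds no support, since the ratios were chosen after the values were seen. C3 was higher and Cr1l lower in every library of LLC with BMSCs, so that their ratio had to separate the groups. C1s1 over C1ra was 1.56 ± 0.0713 in LLC alone and 1.5 ± 0.123 in LLC with BMSCs (SD, n = 3 each), the groups overlapped, and the exact two-sided permutation test gave p = 0.6.

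**Figure D2:**
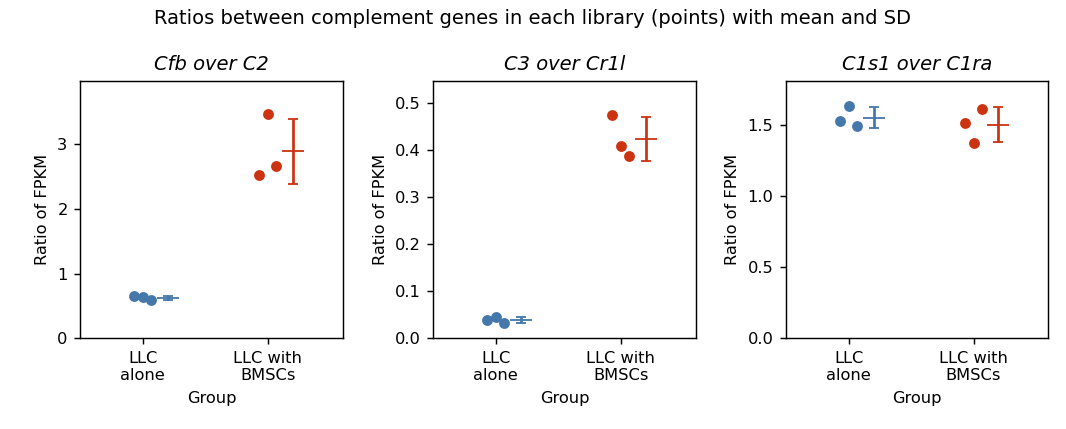
Ratio of FPKM within each library for 3 pairs of genes on linear axes that start at 0, with a point per library and the mean with SD beside it. Cfb over C2 and C3 over Cr1l separate the groups, with means of 0.625 against 2.89 and of 0.0384 against 0.423, and C1s1 over C1ra overlaps, with 1.56 against 1.5.

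The deposited transcript values divide the reads of a gene among its transcripts. This division is an estimate and cannot settle which transcript carried a change. C1ra, C2, C3, C4b and Cd55 each had 1 transcript, so that gene and transcript values are the same. C1s1 was divided among 6 transcripts, of which 2 are RefSeq transcripts and 4 were assembled from the reads before deposition. The main RefSeq transcript (NM_001097617) was at 6.11, 5.88 and 5.54 FPKM in LLC alone and 5.72, 6.95 and 4.67 FPKM in LLC with BMSCs, and the groups overlapped (exact two-sided permutation p = 0.9). The second RefSeq transcript (NM_144938) was at 0.71, 1.32 and 1.19 FPKM in LLC alone and 3.53, 2.61 and 5.59 FPKM in LLC with BMSCs. An assembled transcript was at 0.59, 0 and 1.25 FPKM against 3.87, 2.34 and 4.04, and another at 0.71, 0.98 and 0.57 against 1.59, 1.94 and 1.47. By the deposited division, NM_144938 and these assembled transcripts were higher in each library of LLC with BMSCs than in any of LLC alone (exact two-sided permutation p = 0.1 each). A further assembled transcript, at 0.32, 1.52 and 0.18 FPKM in LLC alone and 1.76, 0.76 and 1.0 FPKM in LLC with BMSCs, overlapped between the groups (exact two-sided permutation p = 0.4).

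Serping1 was divided between the RefSeq transcript NM_009776 and a transcript that the authors assembled. The RefSeq transcript was at 0.45, 0.59 and 0.64 FPKM in LLC alone and at 0.40, 0.10 and 0 FPKM in LLC with BMSCs, opposite to the gene as a whole. The assembled transcript was at 0.13, 0.12 and 0 FPKM in LLC alone and at 1.05, 1.28 and 1.53 FPKM in LLC with BMSCs. Neither transcript overlapped between groups (exact two-sided permutation p = 0.1 each), and the counts behind the division are few, with 44 to 52 for the gene in LLC alone and 136 to 153 in LLC with BMSCs. Cfb was assigned wholly to NM_008198 in 5 libraries and wholly to NM_001142706 in LLC alone replicate 2. For Cd59a, the transcript NM_007652 was at 0.56, 0.42 and 0.66 FPKM in LLC alone and 0.11, 0.17 and 0.15 FPKM in LLC with BMSCs, while NM_001111060 was at or under 0.18 FPKM in every library.

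**Figure D3:**
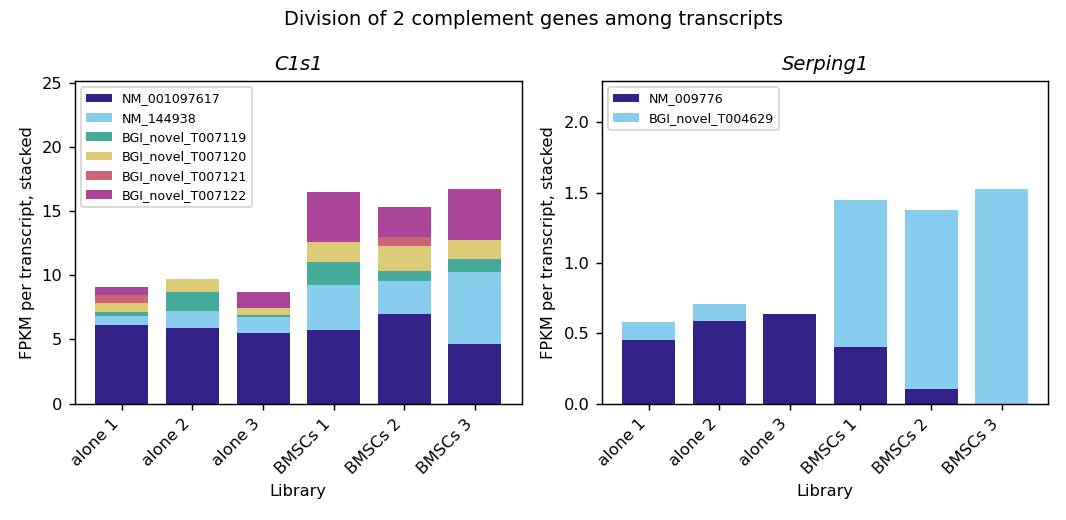
FPKM per transcript stacked for each library, C1s1 on the left and Serping1 on the right, on linear axes that start at 0. NM accessions are RefSeq transcripts and BGI names are transcripts assembled by the authors. The NM_001097617 segment of C1s1 is of similar height in both groups, with means of 5.84 and 5.78 FPKM, and for Serping1 the means were 0.560 and 0.167 FPKM for NM_009776 and 0.0833 and 1.29 FPKM for the assembled transcript.

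A list of 54 other complement genes gave the setting of the 9. Of these, 47 were in the tables used here and 18 passed the filter on low counts, of which 9 were upregulated, 5 were downregulated and 4 did not pass the test, with a median log2 fold change of 0.46. This median turned to -0.21 with DESeq2 and with no filter on low counts, and to -0.0048 with limma and no filter. Those fits gave a log2 fold change for all 47 genes, 29 of which had failed the filter on low counts. Without the receptor and C1q genes, which macrophages or neutrophils transcribe, 5 of 13 tested genes were upregulated and 4 downregulated, with a median of 0.11. This alternative was added after the values were seen. It took out 5 tested receptor genes, of which 4 were upregulated, since no C1q gene was tested. Of the 5 receptor genes, Itgam, C5ar1 and Cd93 had at most 5 counts in each LLC alone library. These could be called upward only, and they are among the 9 upregulated genes. Itgb2 and C3ar1 were also detected in LLC alone, with 75 to 88 and 32 to 58 counts. Over all tested genes 31.5% were upregulated and 31.3% downregulated, so that by adjusted p alone the counts among the 13 genes are near the background. With a log2 fold change of at least 1 in size, 7 of the 18 genes were upregulated and 3 downregulated. Among the 13 genes these counts were 3 and 3, beside 8.65% and 7.17% of all tested genes. The genes below are named by role.

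The recognition unit of C1 was nearly absent. C1qa, C1qb and C1qc, which form the part of C1 that binds surfaces, had 0 to 3 counts in every library. In the classical pathway list, 3 of 7 genes were tested, none of them a C1q gene, and C1s2 was the gene called. In the lectin pathway, 3 of 9 genes were tested. The scavenger collectin gene Colec12 was at 0.76, 0.89 and 0.60 FPKM in LLC alone and 1.71, 1.63 and 1.5 FPKM in LLC with BMSCs (log2 fold change 1.1, SE 0.15, adjusted p = 0.000447, edgeR). The gene of collectin 11, Colec11, fell from a mean of 0.54 to 0.113 FPKM (log2 fold change -2.28, SE 0.28, adjusted p = 0.000251, edgeR), and Masp1 had a log2 fold change of -0.22 with an SE of 0.10 (adjusted p = 0.107, edgeR); both were named after their values were seen.

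The alternative pathway list had 1 tested gene, Cfp, which encodes properdin, the protein that stabilises the alternative convertase. Cfp was at 1.42, 1.62 and 1.89 FPKM in LLC alone and 3.83, 3.73 and 3.75 FPKM in LLC with BMSCs. It rose by 1.22 on the log2 scale with an SE of 0.068 (2.33-fold, adjusted p = 5.17e-06, edgeR), in the same direction as C3 and Cfb. With the trend over length removed, the log2 fold change of Cfp was 0.92. Of 9 deposited Cfp transcripts, 8 were assembled from reads, and the RefSeq transcript overlapped between the groups, with 0, 0.15 and 0.65 FPKM in LLC alone and 0.63, 0.77 and 0.40 FPKM in LLC with BMSCs. Cfd, the gene of factor D, had 1, 1 and 2 counts in LLC alone and 0 in each library of LLC with BMSCs. It was not tested, and was named after its values were seen. Hc, the gene of C5, had 2 to 5 counts in every library. No gene of the terminal pathway passed the filter, and of the 6 on the list 4 were in the tables.

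Among the fluid-phase regulators, Clu and C1qbp were abundant in both groups and were called in opposite directions. Clu, which encodes clusterin, an inhibitor of the membrane attack complex with other roles as a chaperone, was at 20.6, 19.59 and 21.26 FPKM in LLC alone and 36.84, 34.67 and 35.31 FPKM in LLC with BMSCs. It rose by 0.78 on the log2 scale with an SE of 0.061 (adjusted p = 2.88e-05, edgeR). C1qbp, a C1q-binding protein that resides mainly in mitochondria, fell by 0.54 on the log2 scale with an SE of 0.085 (adjusted p = 0.000931, edgeR), from a mean of 344 to 240 FPKM. With the trend over length removed, the log2 fold change of C1qbp was -0.28. Cfi, the gene of factor I, had 1 count in 1 library.

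Of the membrane regulators, Cr1l was by far more abundant than Cd46, Cd55 and Cd59a. Cr1l was at 39.1, 37.29 and 39.21 FPKM in LLC alone and 18.43, 19.77 and 20.45 FPKM in LLC with BMSCs. It fell by 1.0 on the log2 scale with an SE of 0.061 (adjusted p = 7.98e-06, edgeR), the same direction as Cd59a. Cd46, a cofactor for the cleavage of C3b, was at 0.94, 1.0 and 0.82 FPKM in LLC alone and 0.77, 0.70 and 0.77 FPKM in LLC with BMSCs, with a log2 fold change of -0.33 and an SE of 0.14 (adjusted p = 0.0741, edgeR). Thbd, the gene of thrombomodulin, which also acts in coagulation, rose by 0.41 on the log2 scale with an SE of 0.11 (adjusted p = 0.0105, edgeR).

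Receptor genes had 5 tested members of 9, of which 4 were upregulated and 1 was downregulated. Over all tested genes these shares were 31.5% and 31.3%. Itgam, C5ar1 and Cd93 had at most 5 counts in each LLC alone library. They passed the filter on low counts through LLC with BMSCs and could be called upward only. Itgam, the alpha subunit of complement receptor 3 on myeloid cells, had 0, 0 and 5 counts in LLC alone and 241, 231 and 240 in LLC with BMSCs. Its partner subunit Itgb2 was at 0.68, 0.80 and 0.68 FPKM in LLC alone and 2.19, 2.09 and 2.09 FPKM in LLC with BMSCs (log2 fold change 1.54, SE 0.11, adjusted p = 1.41e-05, edgeR). The next 3 genes were named after their values were seen. C5ar1, the receptor for C5a on myeloid cells, had 1, 0 and 0 counts in LLC alone and 39, 18 and 22 in LLC with BMSCs. Cd93, a surface protein of myeloid and endothelial cells, was at 0.01 FPKM in each library of LLC alone and at 0.19 to 0.20 in LLC with BMSCs. C3ar1, the receptor for C3a, was at 0.29, 0.23 and 0.30 FPKM in LLC alone and 0.21, 0.20 and 0.20 FPKM in LLC with BMSCs (log2 fold change -0.45, SE 0.17, adjusted p = 0.0471, edgeR), a call that was lost in 10 of 18 alternatives. The neutrophil marker sum given above moved with the 4 upregulated receptor genes. Of 6 tested macrophage markers, 4 moved the same way and 1 was downregulated. The part of either cell type in the receptor values was not tested.

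**Figure D4:**
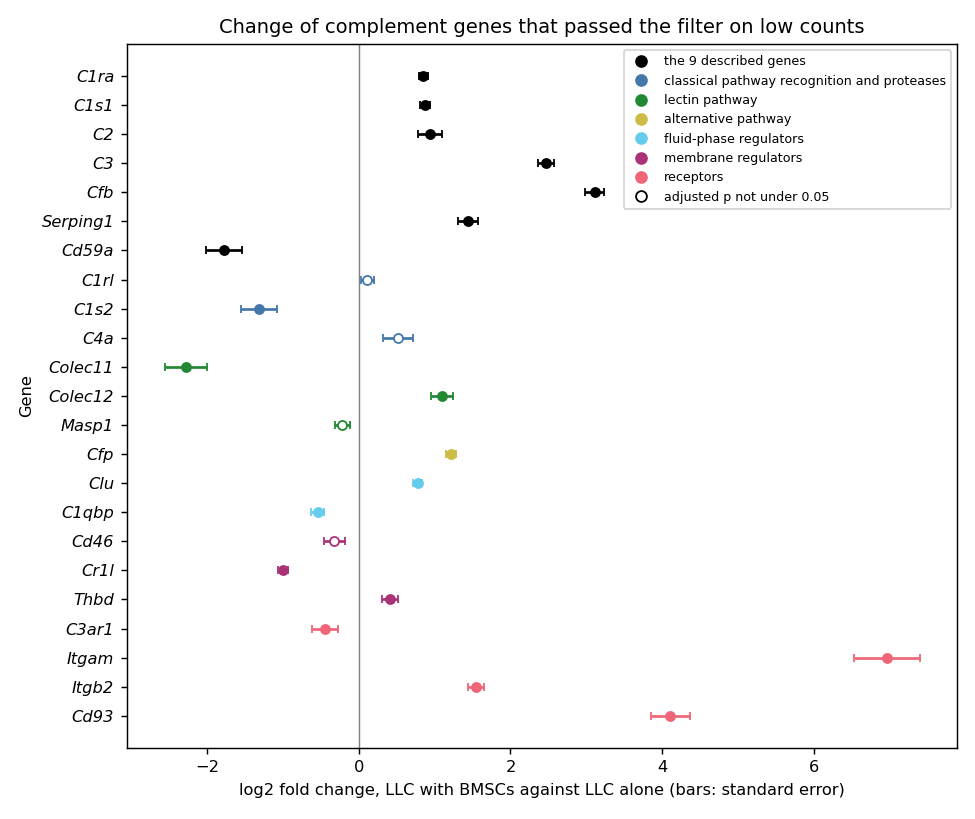
Log2 fold change of LLC with BMSCs against LLC alone from edgeR for the 7 tested members of the 9 genes (black) and other tested complement genes coloured by role, with bars for the SE and open points where the adjusted p was not under 0.05. C5ar1 is left out because all its LLC alone libraries had at most 1 count. Cfb at 3.11 and C3 at 2.46 lie to the right, and Cd59a at -1.78 and Cr1l at -1.0 lie to the left of the line at 0.

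The calls on the 7 tested members were computed again under 20 other ways of fitting. C1ra, C1s1, C3, Cfb and Serping1 kept their direction and their call in 20 of 20, and C2 and Cd59a in the 18 in which they were fitted. Over the fits on counts the log2 fold change ran from 2.28 to 2.55 for C3, from 3.04 to 3.17 for Cfb, from 1.38 to 1.54 for Serping1 and from -1.94 to -1.62 for Cd59a. On log2(FPKM + 1), which shrinks low values, it was as low as 1.28 for Cfb, 0.58 for Serping1 and 0.32 for C2, and -0.46 for Cd59a. On log2(FPKM + 0.1) it was 1.07 for Serping1.

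**Figure D5:**
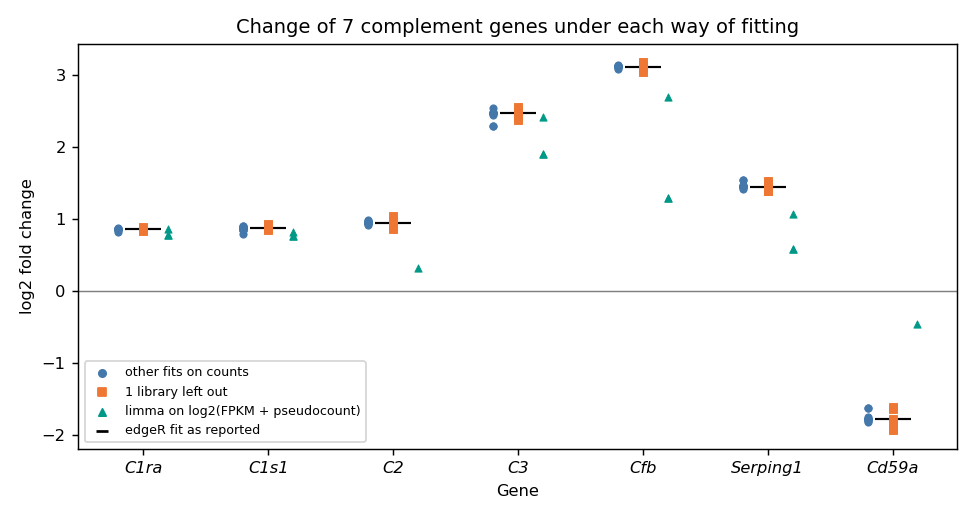
Log2 fold change of the 7 tested members under each way of fitting, with a black bar for the fit reported, blue circles for other fits on counts, orange squares for fits with 1 library left out and green triangles for limma on FPKM. The values stay on their side of 0 for every gene, and the triangles of the low genes Cfb, Serping1, C2 and Cd59a lie nearer to 0.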

How the data were processed

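RNA of RFP-positive cells sorted from tumours of both groups (3 libraries each) was extracted with TRIzol, enriched for poly-A RNA and sequenced as paired reads on the BGISEQ-500, according to the study's methods; the labels name Illumina protocols. The authors deposited an estimated count per gene and library, made by dividing shared reads among genes (21.9% to 23.2% of the listed values were fractional). The authors also deposited FPKM values per gene and transcript, which are relative to transcript length and to the size of the library. The submitters' processing notes name the build mm8 and HISAT, StringTie, Cufflinks and GATK, with no role or version. A gene not listed in a library was set to 0, the lowest FPKM listed being 0.01. Coordinates here come from GENCODE M21 and RefSeq on GRCm38, and were used for no count.

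Estimated counts were rounded and tested with edgeR 4.0.16 in R 4.3.3 (TMM, default filter on low counts, quasi-likelihood test, Benjamini-Hochberg adjustment, threshold 0.05), over all 13353 genes kept, with a coefficient of variation between replicates of 9.92%. Groups and replicate numbers came from the labels. At 33476347 to 46189113 counts per library, 3 counts were 0.065 to 0.0896 CPM, counting error only. The script was tested on simulated data. Alternatives used DESeq2 1.42.0, limma 3.58.1 on log2(FPKM + 1) and log2(FPKM + 0.1), other scalings and filters, a trend over length, close library pairs summed, a replicate block and each library left out. The replicate numbers were checked for pairing.

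The 9 genes, the lists and the tests were chosen with earlier results of these data known. Named besides the 9 were complement genes with an adjusted p under 0.05 and a mean of at least 1 FPKM in a group (at most 15), the C1q genes and the partners and paralogs of members (Hc, C4a, C1rb, C1s2, Cd59b, Cfi, Cr1l, Cd46) whatever their value, and transcripts of members with at least 1 FPKM; others were named after their values were seen. A gene of the list that counts and medians include is not reported here. Proteins were not used here.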

Additional observations from a re-analysis of the deposited data

How the results depend on the processing

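Of 473 values of single complement genes under 20 alternatives, 455 kept their direction and their side of the threshold, 10 lost the call, 8 gained it and none reversed; all 10 losses were C3ar1, and the gains were C4a, Masp1 and Cd46. With limma on FPKM at pseudocounts of 1 and 0.1, 0 members were called lower and 2 other complement genes in each, because fewer genes were tested (5 of the 9 members); with limma on log2(FPKM + 1) and no filter, 8 other genes were called lower. The median log2 fold change of the tested members (0.94) was 1.45 with no filter, 0.77 and 1.07 with limma at pseudocounts of 1 and 0.1, 0.58 with limma and no filter, and 0.86 to 1.23 with a library left out. Without receptor and C1q genes, an alternative added after the values were seen, 5 other genes were called higher. DESeq2, no filter, and limma with no filter gave a log2 fold change for 47 other complement genes in place of 18. The median of the other complement genes (0.46) there turned to -0.21, -0.21 and -0.0048. It was 0.12 with at least 10 counts in every library, 0.39 and 0.59 with limma at both pseudocounts, 0.33 with the length trend removed, 0.33 with a replicate block and the trend removed, 0.11 with close pairs summed and 0.24 to 0.48 with a library left out. C4b entered as a seventh higher member without LLC with BMSCs replicate 3. With paralog reads summed, the added call was that of C4b with C4a together. C4b held 0% to 30.1% of these reads, so that this is not a call on C4b itself. Same-numbered libraries had correlations of 0.0762, -0.106 and 0.0572 in their deviations from the group means. These show no clear pairing by replicate number, but deviations within groups of 3 libraries cannot exclude one. With a replicate block 4161 genes were higher and 4058 lower in place of 4210 and 4183. With that block 6 members were higher and 1 lower. Calls on genes under about 10 counts, C4b and Cd55 among the 9, are limited by depth.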
